A study of Mus musculus with 6 samples.

Results

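The genes described here make or use glutathione, the main small thiol of the cell, or set the activity of Nrf2, the transcription factor that drives many of them. A probe belonged to the set when the gene name that the deposited array table gives it, in upper or lower case, was NFE2L2, KEAP1, NQO1, GCLC, GCLM, GSR, GSTA4, GSTM1, GSTM2 or GSTP1, and each probe was kept on its own. Of these 10 genes 9 had a probe, which came to 19 of the 45281 probes of the table. GSR was not analysed here. A probe was tested if its detection p-value, the share of negative-control beads that are as bright, was under 0.05 on at least 3 arrays, which held for 16 of the 19 probes and for 17890 probes in all.

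C2C12 cells are mouse myoblasts that fuse into myotubes when serum is lowered. Myoblasts received 60 nM of scramble siRNA (Scramble, 3 samples) or 60 nM of a single siRNA against *Dj1* (siDJ-1, 3 samples), both with Lipofectamine RNAiMAX. They were moved to differentiation medium with horse serum 48 h later, and their total RNA was taken after 96 h (4 days) in it and put on the 6 arrays of 1 Illumina BeadChip for mouse transcripts. No untransfected sample and no further siRNA against *Dj1* was analysed, and since nothing states that the 3 samples of a group came from separate cultures, p-values measure only the spread between these samples, which may be technical. Between 16985 and 18179 probes were detected on a Scramble array and between 18408 and 18857 on an siDJ-1 array, and the median standard error over beads was 8.30 to 11.3 on the former and 5.88 to 7.17 on the latter. What this gap contributed to the differences below was not tested. All values are background-corrected, quantile-normalized log2 signals. A probe is called higher or lower where limma's moderated test gave an adjusted p under 0.05, with the Benjamini-Hochberg method over all 17890 tested probes.

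Nrf2, the product of NFE2L2, is bound by Keap1, an adaptor of a Cul3 ubiquitin ligase, and is degraded. When oxidants or electrophiles modify cysteines of Keap1, Nrf2 accumulates, pairs with a small Maf protein and binds antioxidant response elements near genes such as NQO1, GCLC, GCLM and several glutathione transferases. Glutamate-cysteine ligase, with GCLC as its catalytic and GCLM as its modifier subunit, makes the first bond of glutathione, glutathione reductase (GSR) restores its reduced form, and the transferases join it to electrophiles such as products of lipid peroxidation.

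The targeted gene was examined first. The probe for *Dj1*, listed as PARK7 (ILMN_2728754), gave log2 signals of 13.59, 13.37 and 13.63 in Scramble and of 12.48, 12.49 and 12.15 in siDJ-1. All siDJ-1 arrays lay below all Scramble arrays, with 44.7% of the Scramble signal left (log2 fold change -1.16, standard error 0.14, adjusted p = 0.00344 from limma).

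Myotube markers were bright in both groups and several were lower after knockdown. All 10 marker genes (Des, Ckm, Myog, Acta1, Actn2, Tnnc1, Tnnc2, Myh3, Tnnt3 and Mymk) had a tested probe. Of their 13 tested probes 7, of Actn2, Tnnc2, Mymk, Des and Tnnt3, were called lower and 6 were not called (13.6% of all tested probes were called lower), and the median log2 fold change was -0.52. Their summed signal, with Acta1 as the brightest, was 192200, 194400 and 188700 in Scramble against 154800, 164900 and 143600 in siDJ-1. Fewer cells of a type and less RNA per cell cannot be told apart in such bulk samples. The number of myotube marker probes called lower stayed at 7 without siDJ-1 replicate 2 and was 5 without Scramble replicate 1 or 2, 4 without Scramble replicate 3, 3 without siDJ-1 replicate 3 and 2 without siDJ-1 replicate 1. In that order, 1914, 2412, 1659, 1751, 1261 and 1172 of all 17890 tested probes were called lower, against 2430 with all arrays.

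Of the fibroblast markers, Dcn, Col3a1 and Pdgfra had 5 tested probes, of which 4 were called lower (against 13.6% of all tested probes), and Thy1 and Lum had none. Their summed signal, with Col3a1 as the brightest, was 21500, 20770 and 20740 in Scramble against 12830, 14620 and 12240 in siDJ-1. Instead of these 4 calls, 2 were made without Scramble replicate 3, without siDJ-1 replicate 1 or 3, and after a common 75th percentile with background correction, and 5 under 3 other ways of processing. Over all tested probes 1751, 1172, 1261 and 2123 were called lower in the former settings, in that order. In the latter 3 the number ran from 2662 to 3026. The other marker lists gave few tested probes. None of the 7 endothelial probes (Pecam1, Cdh5, Kdr, Tek) was bright enough to be tested, and of the 9 macrophage probes 1 was tested, that of Cd68, which was not called with all arrays and was called higher without Scramble replicate 2. Of the 6 adipocyte probes 1 was tested, that of Lpl, which was called lower but lost the call with any array left out other than siDJ-1 replicate 2 and under 4 of the 9 other ways of processing. The 8 tested probes of proliferating cells had a median log2 fold change of 0.24. Of these 1, for Ccnb1, was called lower, a call lost without siDJ-1 replicate 1 or 3, and from 1 to 3 others were called higher under 7 of the 9 other ways of processing. The part of the muscle and fibroblast markers in the differences below was not tested.

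The RefSeq table of promoters (build GRCm38.p6, 250 bases before to 50 after a transcription start) held 7 of the 10 members, NFE2L2, KEAP1, NQO1, GCLM, GSTM1 (with 2 starts), GSTM2 and GSTP1. They were searched on both strands for the core of the antioxidant response element, TGACNNNGC, because Nrf2 binds this element in many of its targets. NFE2L2 and GCLM held 1 match each, beginning 240 and 134 bases before the start, in a list where 12.4% of 32841 promoter windows have a match. After the sequences had been read, a second and partly similar motif, TGANTCAGC, was searched as well. GSTP1 held it once, 74 bases before the start, against 1.19% of all windows. These matches are descriptions of letters in a window and no measure of binding. The windows with a match are given 5′ to 3′ on the strand of the gene, with the match in capitals, which in GCLM lies on the opposite strand.
NFE2L2 promoter, chr2:75704614-75704913, minus strand: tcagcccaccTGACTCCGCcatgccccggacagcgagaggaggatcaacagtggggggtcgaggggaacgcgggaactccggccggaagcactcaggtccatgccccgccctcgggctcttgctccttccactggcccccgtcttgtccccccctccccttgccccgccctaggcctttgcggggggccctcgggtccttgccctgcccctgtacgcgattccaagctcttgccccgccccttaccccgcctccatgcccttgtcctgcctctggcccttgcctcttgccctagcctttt
GCLM promoter, chr3:122245307-122245606, plus strand: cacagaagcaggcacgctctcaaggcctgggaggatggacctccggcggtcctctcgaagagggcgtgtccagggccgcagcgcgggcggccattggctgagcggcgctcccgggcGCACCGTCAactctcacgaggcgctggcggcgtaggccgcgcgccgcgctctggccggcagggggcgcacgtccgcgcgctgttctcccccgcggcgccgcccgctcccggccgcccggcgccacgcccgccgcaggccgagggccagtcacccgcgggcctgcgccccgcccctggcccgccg
GSTP1 promoter, chr19:4037863-4038162, minus strand: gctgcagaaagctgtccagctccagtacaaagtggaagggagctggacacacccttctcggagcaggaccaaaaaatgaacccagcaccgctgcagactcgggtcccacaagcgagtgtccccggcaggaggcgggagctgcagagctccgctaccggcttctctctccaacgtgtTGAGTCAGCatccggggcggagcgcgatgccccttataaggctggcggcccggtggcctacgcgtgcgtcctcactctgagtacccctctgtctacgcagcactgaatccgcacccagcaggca

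Across the members, the gene for Nrf2 was higher after *Dj1* knockdown and the gene for its inhibitor Keap1 was lower. The catalytic subunit of glutamate-cysteine ligase was lower, and the transferases GSTM1 and GSTM2 differed in opposite directions. Of the 16 tested member probes 7 (43.8%) were called, where 30.1% of all tested probes were. Of these, 2 were higher (16.5% of all tested probes were called higher) and 5 were lower (13.6% were called lower). They belonged to 5 genes, NFE2L2, KEAP1, GCLC, GSTM1 and GSTM2, while NQO1, GCLM, GSTA4 and GSTP1 had no called probe. No overlap of the groups was seen for 9 of the 16 probes, 3 with siDJ-1 above and 6 with siDJ-1 below, and for 48.5% of all tested probes. The median log2 fold change was -0.17 over the member probes and 0.05 over all tested probes, and the median size without sign was 0.34 and 0.30. The median over the member probes ran from -0.27 where a probe had to be detected at p under 0.01 on all 6 arrays to -0.10 without Scramble replicate 2. Probes of 1 gene read the same transcript pool and are not independent. The count was 2 of 16 (12.5%) without siDJ-1 replicate 1 and again without siDJ-1 replicate 3, when only NFE2L2 and GCLC were called among the members and 14.3% and 15.2% of all tested probes were called. It was 4 of 16 without Scramble replicate 2 or without siDJ-1 replicate 2, when 21.1% and 22.6% of all tested probes were called.

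**Figure D1:**
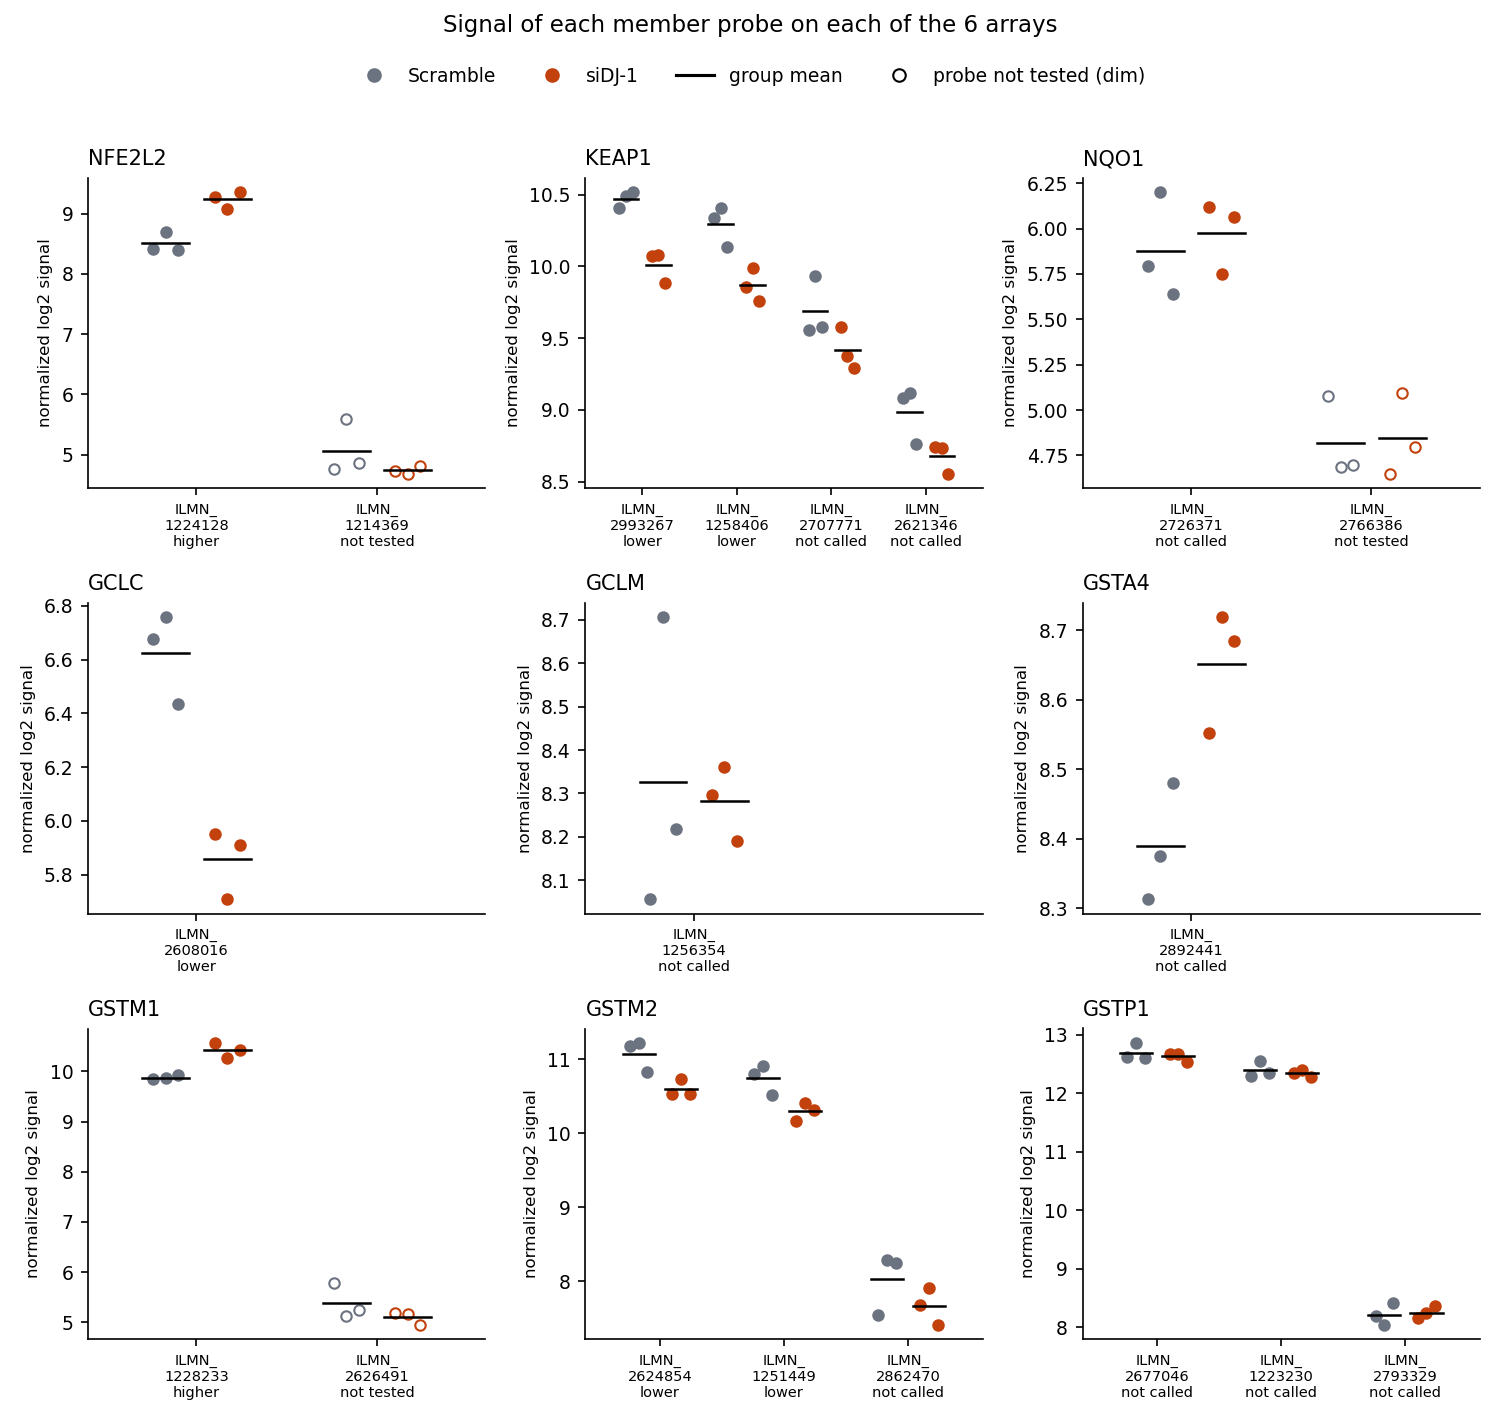
Normalized log2 signal (vertical axes, scaled for each gene) of the 19 member probes on the 3 Scramble and 3 siDJ-1 arrays, with group means as lines and untested probes as open circles. The siDJ-1 arrays of NFE2L2 (ILMN_1224128) lie between 9.08 and 9.37, above all Scramble arrays, and those of GCLC between 5.71 and 5.95, below all Scramble arrays.

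NFE2L2 had the largest rise of the set. Its tested probe (ILMN_1224128) gave log2 signals of 8.42, 8.70 and 8.41 in Scramble and of 9.27, 9.08 and 9.37 in siDJ-1. Every siDJ-1 array lay above every Scramble array. The log2 rise was 0.73 (standard error 0.13, adjusted p = 0.00918 from limma), or 1.66-fold with a 95% confidence interval from 1.34 to 2.06. It was called under all 15 alternatives, with log2 fold changes from 0.56 to 0.83. The second probe (ILMN_1214369) was detected on 1 Scramble array and on no siDJ-1 array and was not tested.

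KEAP1, which encodes the adaptor that holds Nrf2 for degradation, has 4 tested probes, and all 4 had a negative log2 fold change under every alternative. Probe ILMN_2993267 gave 10.41, 10.49 and 10.52 in Scramble against 10.07, 10.08 and 9.88 in siDJ-1. The groups did not overlap, and the probe fell by 0.46 (standard error 0.10, adjusted p = 0.0180 from limma). For ILMN_1258406 the signals were 10.33, 10.41 and 10.14 against 9.86, 9.99 and 9.76. These groups did not overlap either, and the fall was 0.42 (standard error 0.12, adjusted p = 0.0364). The other probes were not called. ILMN_2621346 had siDJ-1 arrays just below the Scramble arrays, at 8.55 to 8.74 against 8.76 to 9.12 (log2 fold change -0.31, 95% confidence interval -0.63 to 0.001, adjusted p = 0.118). ILMN_2707771 had overlapping groups, at 9.29 to 9.58 against 9.55 to 9.93 (log2 fold change -0.27, adjusted p = 0.191), and was at -0.15 without Scramble replicate 2. With the mean of its 4 probes taken as 1 value, KEAP1 fell by 0.37 (adjusted p = 0.0394 over 12933 genes).

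The calls of KEAP1 were lost in several of the fits with 1 array left out, while the direction was kept. Over all tested probes 5387 were called with all arrays, 2559 without siDJ-1 replicate 1 and 2712 without siDJ-1 replicate 3. ILMN_2993267 lost its call without Scramble replicate 3 or siDJ-1 replicate 1 or 3 (adjusted p of at most 0.0604 over the alternatives). Its log2 fold change ran from -0.495 to -0.396 with each array left out. ILMN_1258406 was called with Scramble replicate 3 left out, and with no other array left out (log2 fold changes from -0.51 to -0.35 and adjusted p of at most 0.114 over the alternatives). It was also lost after a common 75th percentile with background correction, with no filter on dim probes and with an unmoderated t-test.

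**Figure D2:**
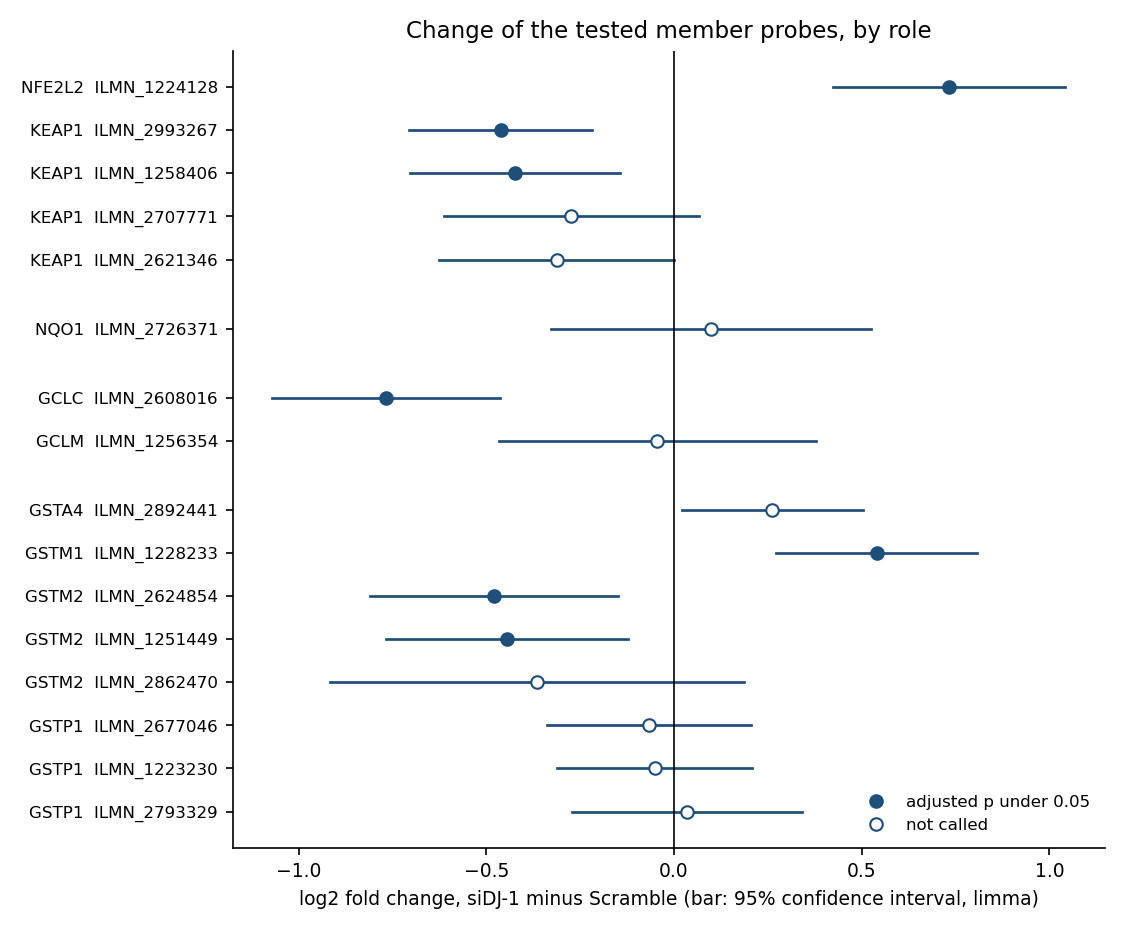
Log2 fold change of siDJ-1 over Scramble (horizontal axis) of the 16 tested member probes, grouped by role, with 95% confidence intervals from limma and called probes filled. The values run from -0.77 for GCLC to 0.73 for NFE2L2, and the 4 probes of KEAP1 and the 3 of GSTM2 all lie left of 0.

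NQO1, a quinone reductase and a standard readout of Nrf2 activity, was dim and not called. Its tested probe (ILMN_2726371) gave 5.79, 6.204 and 5.64 in Scramble against 6.12, 5.75 and 6.06 in siDJ-1. The siDJ-1 arrays lay inside the range of Scramble (log2 fold change 0.10, 95% confidence interval -0.33 to 0.53, adjusted p = 0.712), an interval that leaves room for a moderate change in either direction. Over the alternatives the log2 fold change ran from -0.02, without Scramble replicate 3, to 0.27 without Scramble replicate 2. A further probe (ILMN_2766386) was detected on no array and was not tested.

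GCLC, the subunit that joins glutamate to cysteine, had the largest fall of the set in the values reported here. Its probe (ILMN_2608016) gave 6.68, 6.76 and 6.44 in Scramble against 5.95, 5.71 and 5.91 in siDJ-1. All siDJ-1 arrays lay below all Scramble arrays, with 58.8% of the Scramble signal left (log2 fold change -0.77, standard error 0.13, adjusted p = 0.00760 from limma). The call was made under all 15 alternatives. The size of this fall depended on the background correction of a dim signal, and without that step the log2 fold change was -0.28 with quantile normalization and -0.27 with a common 75th percentile. It was then smaller than the falls of the called KEAP1 and GSTM2 probes.

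GCLM, its partner subunit, showed no such fall. The probe (ILMN_1256354) gave 8.06, 8.71 and 8.22 in Scramble against 8.30, 8.36 and 8.19 in siDJ-1. The siDJ-1 arrays lay inside the range of the Scramble arrays (log2 fold change -0.04, 95% confidence interval -0.47 to 0.38, adjusted p = 0.871). The sign turned without Scramble replicate 2, to 0.15, and the value was -0.18 without Scramble replicate 1. Whether GCLC and GCLM differed from each other in their change was not tested.

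GSTA4, a transferase known for its activity on the lipid peroxidation product 4-hydroxynonenal, was not called. The probe (ILMN_2892441) gave 8.31, 8.38 and 8.48 in Scramble against 8.55, 8.72 and 8.68 in siDJ-1. The groups did not overlap, at a log2 fold change of 0.26 (95% confidence interval 0.02 to 0.50, adjusted p = 0.0942 from limma). None of the 15 alternatives called it, with log2 fold changes from 0.16 to 0.31 and adjusted p of at most 0.215.

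GSTM1 and GSTM2 are neighbours on chromosome 3 and encode mu-class transferases of closely similar sequence, so that a probe of the one may also bind transcripts of other genes of the class, which was not tested. Their promoter windows are shown because the genes differed in opposite directions. The longest runs of letters that the windows share, in capitals, have 9 bases, and there are 3 of them, while the windows of the pi-class pair GSTP1 and Gstp2 share a run of 43. How long a run other pairs of windows share was not counted, and the part of the promoters in the changes was not tested. Neither window has a match to TGACNNNGC, and for GSTM1 the start further downstream is shown.
GSTM1 promoter, chr3:108017769-108018068, minus strand: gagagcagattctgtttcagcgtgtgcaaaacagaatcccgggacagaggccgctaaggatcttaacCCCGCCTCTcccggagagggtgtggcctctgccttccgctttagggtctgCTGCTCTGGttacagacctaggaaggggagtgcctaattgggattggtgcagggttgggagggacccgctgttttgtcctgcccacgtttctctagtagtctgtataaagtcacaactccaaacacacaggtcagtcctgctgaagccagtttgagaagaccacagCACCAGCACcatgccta
GSTM2 promoter, chr3:107986371-107986670, minus strand: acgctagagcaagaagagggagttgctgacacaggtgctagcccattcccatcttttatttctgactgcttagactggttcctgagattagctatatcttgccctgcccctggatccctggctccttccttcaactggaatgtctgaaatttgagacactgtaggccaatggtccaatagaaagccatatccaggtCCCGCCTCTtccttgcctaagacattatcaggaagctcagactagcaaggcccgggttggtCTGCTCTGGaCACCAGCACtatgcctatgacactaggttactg

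The tested GSTM1 probe (ILMN_1228233) gave 9.84, 9.86 and 9.93 in Scramble against 10.57, 10.26 and 10.42 in siDJ-1. Every siDJ-1 array lay above every Scramble array, and the rise was 0.54 (standard error 0.11, adjusted p = 0.0149 from limma), or 1.45-fold. The call was lost without siDJ-1 replicate 1 or 3, with adjusted p of at most 0.0594 over the alternatives. A second probe (ILMN_2626491) was detected on 1 Scramble array and on no siDJ-1 array and was not tested.

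GSTM2 was read by 3 tested probes, which all had a negative log2 fold change under every alternative. ILMN_2624854 gave 11.18, 11.23 and 10.83 in Scramble against 10.53, 10.73 and 10.54 in siDJ-1. The groups did not overlap, and the probe fell by 0.48 (standard error 0.14, adjusted p = 0.0413 from limma). ILMN_1251449 gave 10.81, 10.91 and 10.52 against 10.17, 10.41 and 10.32. Its siDJ-1 arrays were again all lower, and it fell by 0.45 (standard error 0.13, adjusted p = 0.0478). The third probe, ILMN_2862470, had overlapping groups at 7.55 to 8.29 against 7.41 to 7.91 (log2 fold change -0.36, adjusted p = 0.273). Both calls were made without Scramble replicate 3 and lost with any other array left out, at log2 fold changes from -0.61 to -0.35 and adjusted p of at most 0.153 over the alternatives. Both were also lost after a common 75th percentile with background correction, with no filter on dim probes and with an unmoderated t-test, and that of ILMN_1251449 with the replicate block. The third probe was called without Scramble replicate 1 only, at -0.60 (adjusted p of 0.0404 there, of a range up to 0.556), and its log2 fold change was as small as -0.23 over the alternatives.

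**Figure D3:**
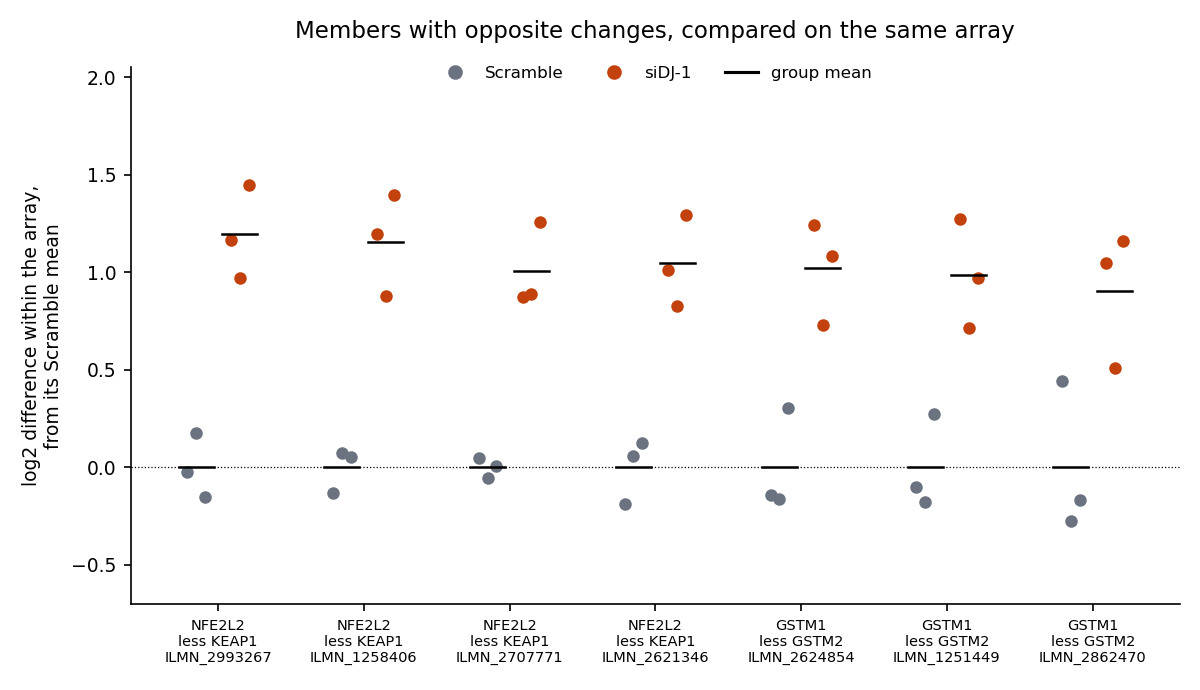
Log2 signal of NFE2L2 less that of each KEAP1 probe and of GSTM1 less that of each GSTM2 probe on the same array (vertical axis, set to 0 at the mean of the 3 Scramble arrays), with group means as lines. In all 7 pairs the 3 siDJ-1 arrays lie above the 3 Scramble arrays, by 0.90 to 1.195 on average.

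The members with opposite changes were also set side by side within each array. These pairs were picked for their opposite changes and share the NFE2L2 or the GSTM1 probe, so the differences describe the values above and are no further test of them. The log2 difference of NFE2L2 less KEAP1 was higher in siDJ-1 by 1.01 to 1.195 over the 4 KEAP1 probes, and that of GSTM1 less GSTM2 by 0.90 to 1.020 over the 3 GSTM2 probes. On signals that were neither background-corrected nor normalized these gaps were 0.79 to 0.94 and 0.76 to 0.91. Such a difference shows unequal change and not which of the genes changed.

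GSTP1, the pi-class transferase, was not called on any of its 3 probes. ILMN_2677046 gave 12.62, 12.86 and 12.60 in Scramble against 12.68, 12.68 and 12.53 in siDJ-1. The groups overlapped (log2 fold change -0.07, 95% confidence interval -0.34 to 0.21, adjusted p = 0.696 from limma). The other probes, ILMN_1223230 and ILMN_2793329, had log2 fold changes of -0.05 and 0.03 with intervals from -0.31 to 0.21 and from -0.27 to 0.34. All 3 signs turned with a common 75th percentile and no background correction, at 0.03, 0.03 and -0.01. The gene has a near-identical copy, Gstp2, whose probe (ILMN_2917386) was not called either (log2 fold change 0.10, adjusted p = 0.7504).

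**Figure D4:**
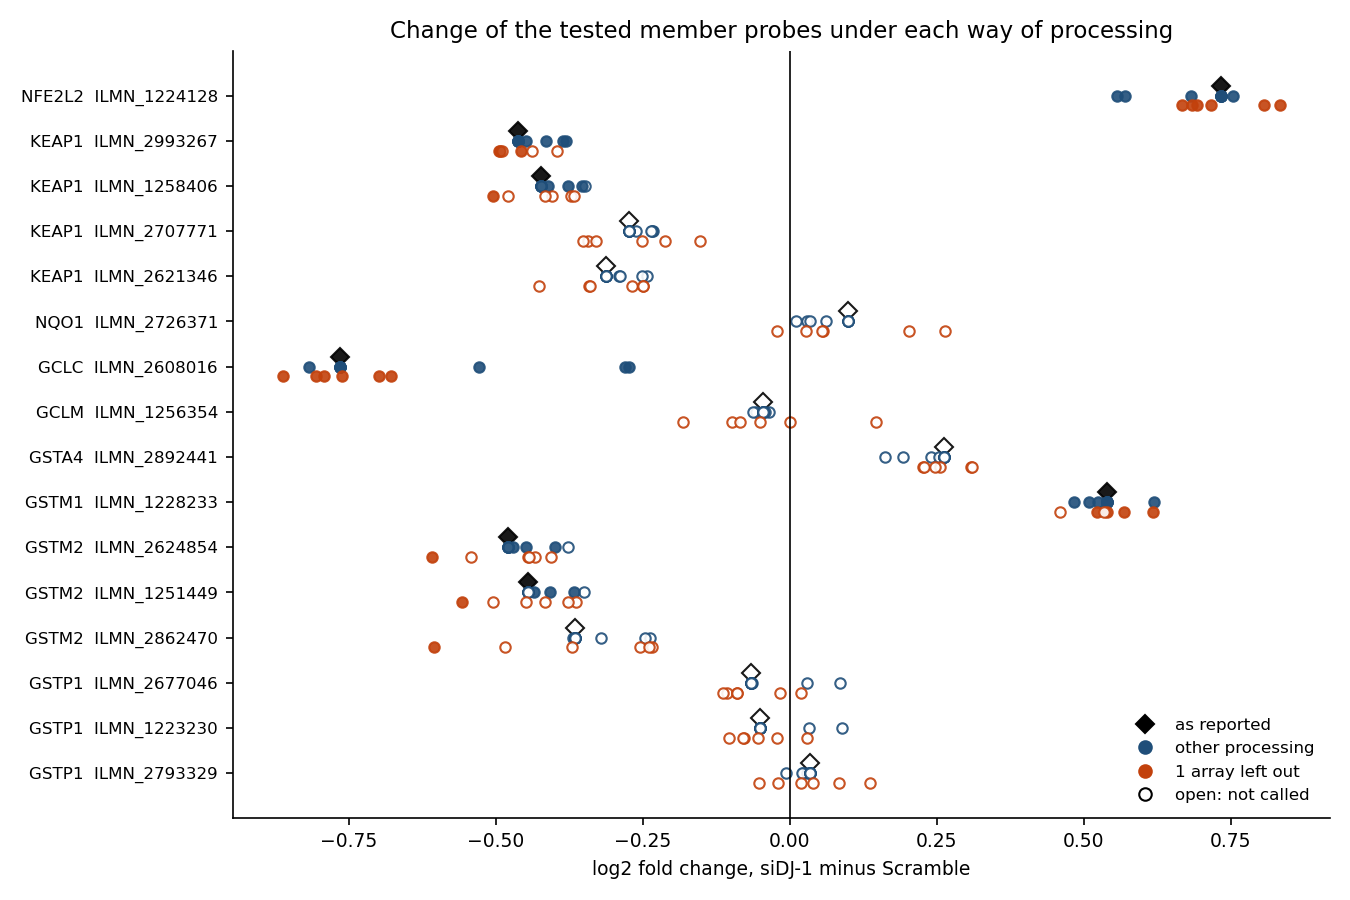
Log2 fold change (horizontal axis) of each tested member probe as reported (diamonds), under 9 other ways of processing (blue) and with each of the 6 arrays left out (orange), with filled symbols where called. NQO1 has no value under the filter that needs detection p under 0.01 everywhere. NFE2L2 and GCLC are filled throughout, while the values of GSTP1, GCLM and NQO1 fall on both sides of 0.

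Related genes were described from 4 lists. Over the alternatives from 7.77% to 40.9% of all tested probes were called, which is the background to the ranges of calls in each list. Of 16 tested probes of other genes of glutathione synthesis and turnover, 1 was called higher and 2 lower (18.8%, against 30.1% of all tested probes), with a median log2 fold change of -0.07. Over the alternatives at most 2 were called higher and from 1 to 3 lower. Chac1, which degrades glutathione in the cytosol, fell by 1.08 (standard error 0.12, adjusted p = 0.00310 from limma), from 11.17 to 11.45 on the Scramble arrays to 10.07 to 10.27 on the siDJ-1 arrays. It was called under all 15 alternatives. Slc3a2, the shared heavy chain of the cystine transporter and of other amino acid transporters, rose by 0.83 (standard error 0.24, adjusted p = 0.0391), a call lost without Scramble replicate 2 or 3 or siDJ-1 replicate 1 or 3. Glo1, the glyoxalase that uses glutathione to clear methylglyoxal, fell by 0.33 (standard error 0.09, adjusted p = 0.0383), a call lost with any array left out. Slc7a11, the light chain of the cystine transporter, was among 7 genes of this list with no tested probe.

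Of 16 tested probes of other glutathione transferases, 1 was called higher and 2 lower (18.8%, against 30.1% of all tested probes), with a median of 0.08. From 0 to 4 were called higher and from 0 to 2 lower over the alternatives. The higher call was that of Gstm4, which was undetected throughout Scramble and passed the filter only through the siDJ-1 arrays. On background-corrected values its signal was at least 1.25-fold higher there, taking as limit the lowest signal that counted as detected on an array, while the log2 fold change was 0.26 to 0.28 with no background correction, and limma run on all 45281 probes, with dim ones kept, did not call it (adjusted p = 0.0936). Mgst2, a microsomal member, fell by 0.42 (standard error 0.12, adjusted p = 0.0348 from limma), and Gsto1, of the omega class, fell by 0.37 (standard error 0.11, adjusted p = 0.0465). Each of these calls was lost with at least 4 of the 6 arrays left out in turn. Gstm4 was called only without siDJ-1 replicate 2, Mgst2 only without Scramble replicate 1 or siDJ-1 replicate 2, and Gsto1 only without Scramble replicate 1.

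Of 17 tested probes of partners and regulators of Nrf2, 2 were called higher and 1 lower (17.6%, against 30.1% of all tested probes), with a median of 0.17. Over the alternatives from 2 to 4 were called higher and at most 2 lower. Maff, a small Maf protein that pairs with Nrf2, gave 7.18, 7.56 and 7.42 in Scramble against 8.75, 8.36 and 8.71 in siDJ-1. All siDJ-1 arrays were higher, by 2.33-fold (log2 fold change 1.22, standard error 0.15, adjusted p = 0.00374 from limma). Btrc, a receptor of the ubiquitin ligase that marks Nrf2 for degradation independently of Keap1, rose by 0.71 on 1 probe (ILMN_3100042, standard error 0.10, adjusted p = 0.00484), and its other tested probe was at 0.64 and not called (adjusted p = 0.168). These calls of Maff and Btrc were made under all 15 alternatives, at a log2 fold change of 0.79 to 0.80 for Maff with no background correction. Cul3, the scaffold of the Keap1 ligase, fell by 0.34 on 1 probe (ILMN_2487814, adjusted p = 0.0300), a call lost with any array left out, and was at 0.02 on its other probe (adjusted p = 0.889). The calls of Slc3a2, Glo1, Gstm4, Mgst2, Gsto1 and Cul3 were each also lost under 3 or 4 of the other ways of processing. After a common 75th percentile with background correction Glo1 was at -0.19 and Gsto1 at -0.23.

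Of 31 tested probes of other Nrf2 target genes, 9 were called higher and 2 lower (35.5%), with a median of 0.08, where 16.5% of all tested probes were called higher and 13.6% lower. The count of higher calls was 6 without siDJ-1 replicate 1 or 3. There 1387 and 1451 of all 17890 tested probes were called higher, against 2957 with all arrays. The count of lower calls ran from 1 to 3 over the alternatives. Blvrb, the biliverdin reductase B gene, gave 7.98, 7.80 and 7.93 in Scramble against 8.94, 8.89 and 9.05 in siDJ-1 for ILMN_2770917. This was a rise of 1.05 with no overlap (standard error 0.10, adjusted p = 0.00285 from limma), and its second probe rose by 0.83 (adjusted p = 0.00443). Cat, the catalase gene, was undetected throughout Scramble on ILMN_2772845 and at least 1.54-fold higher on background-corrected values in siDJ-1, through which alone it passed the filter. With no background correction its log2 fold change was 0.36 to 0.39. When limma was run on all 45281 probes it was called too (adjusted p = 0.00557), while its other probe was at 0.25 and not called (adjusted p = 0.142). Srxn1, the sulfiredoxin gene, moved the other way. Its probe ILMN_1229994 gave 6.45, 6.47 and 6.82 in Scramble against 5.12, 5.54 and 5.87 in siDJ-1, where 2 of 3 detected it. It fell by 1.07 (standard error 0.21, adjusted p = 0.0125), and by as little as 0.36 with no background correction. An unmoderated t-test did not call it (adjusted p = 0.0563). Its other probes were at -0.48 and -0.42 and not called (adjusted p of 0.0976 and 0.122). The second lower call was that of the peroxiredoxin gene Prdx1 (ILMN_1223738), which fell by 0.35 (adjusted p = 0.0295). It was lost with any array left out and under 4 of the 9 other ways of processing, with a log2 fold change as small as -0.18, and the other Prdx1 probe was at -0.13 and not called (adjusted p = 0.754).

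**Figure D5:**
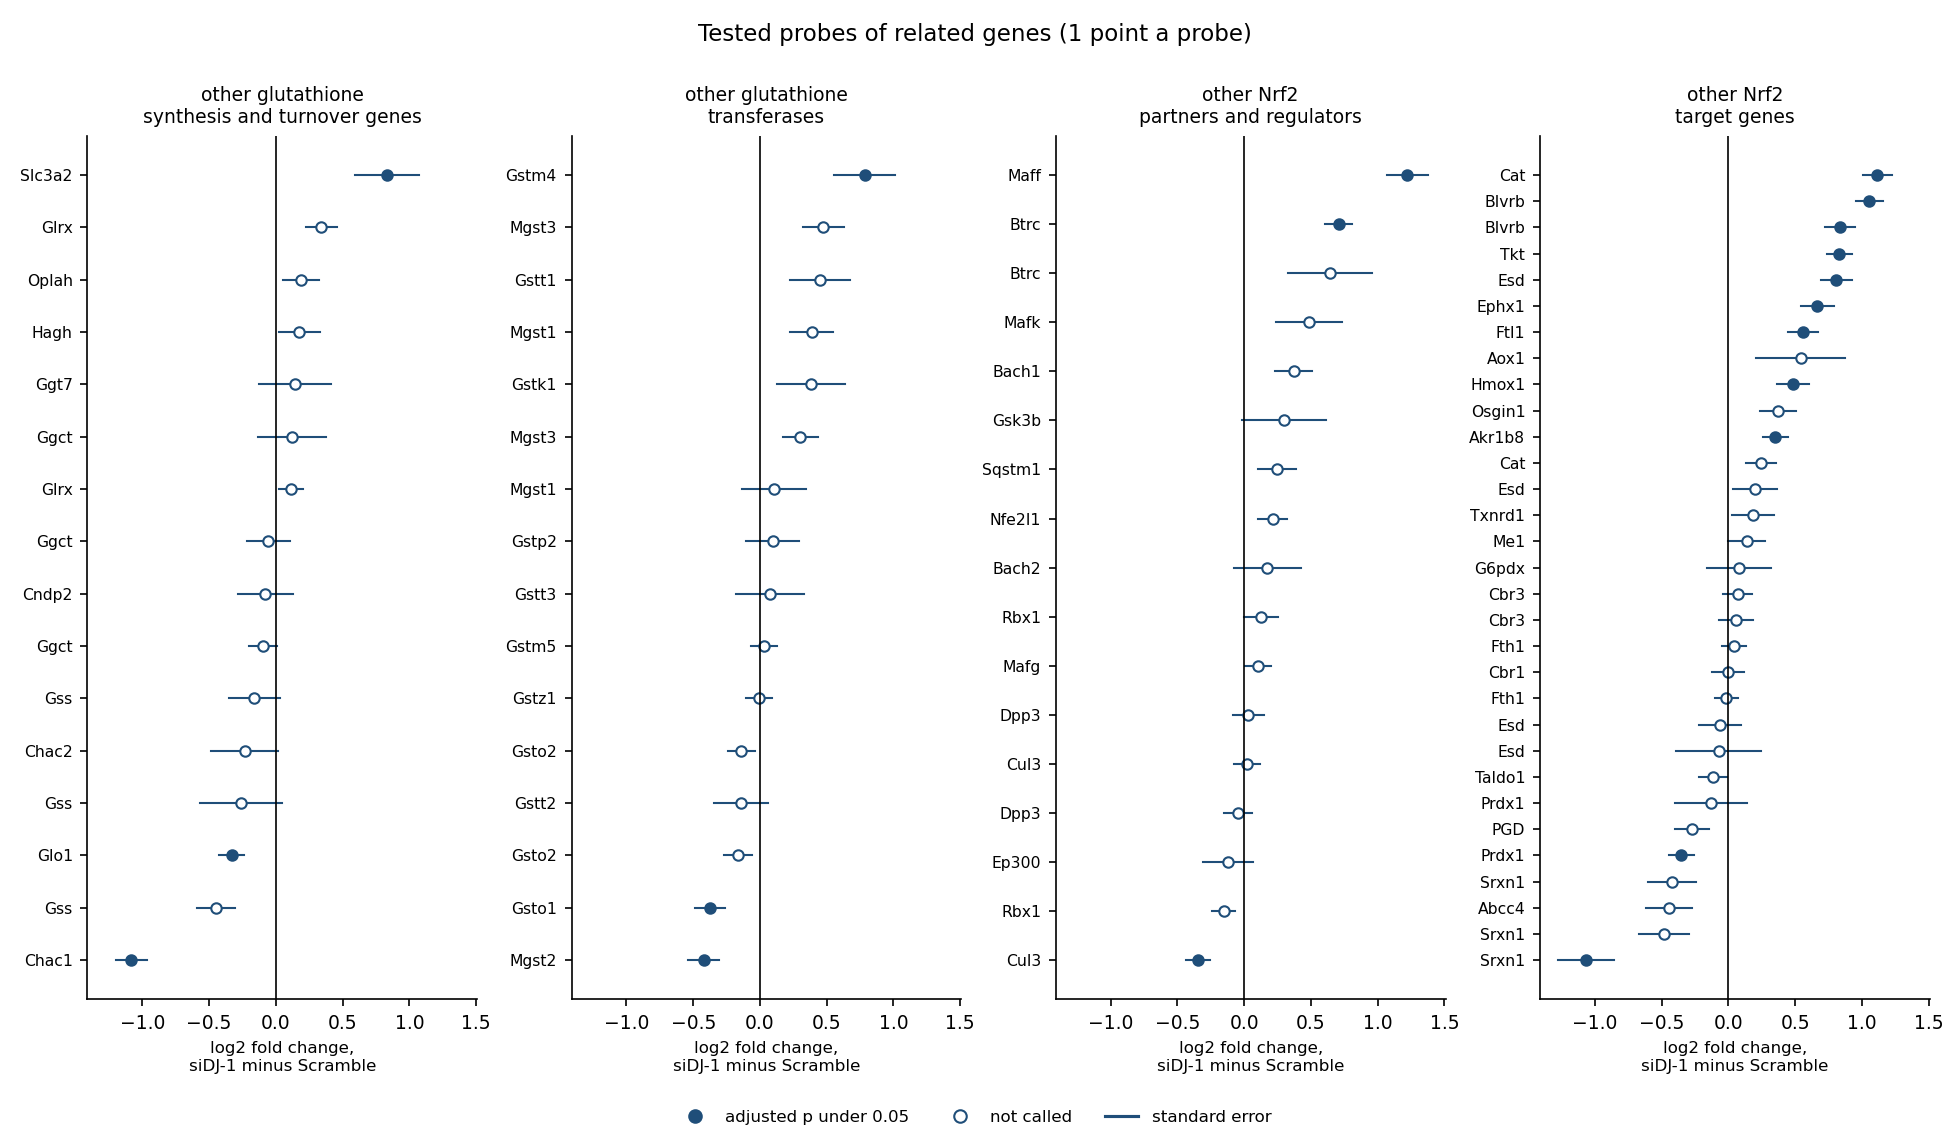
Log2 fold change of siDJ-1 over Scramble (horizontal axes, with standard errors) of every tested probe of the 4 lists of related genes, 1 point a probe, with called probes filled. Values for Gstm4 and for the upper Cat point are fitted ones for probes undetected throughout Scramble. Among Nrf2 target genes 9 probes are filled on the right and 2 on the left.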

How the data were processed

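The authors labelled total RNA of each sample, hybridized it to the BeadChip and quantified it in GenomeStudio. Their table holds, for 45281 probes, the deposited intensity (mean over beads), its standard error, the bead count and the deposited detection p-value of every array. Per the file headers the intensity was not normalized and had no background taken off. The sources used here give no genome build for the probes.

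In R 4.3.3 with limma 3.58.1, background was corrected by normexp with an offset of 16, taking the negative controls from the detection p-values, followed by quantile normalization and log2 (neqc). Tested probes were fitted with lmFit and eBayes, with arrays grouped by sample title, and the Benjamini-Hochberg adjustment ran over all 17890. With 3 arrays per group the precision is limited. Members were matched by the names of the table, and the other lists by names updated for 32345 probes through the RefSeq genes of GRCm38.p6. The script was tested on simulated data. Named are all member probes, *Dj1* and, for each list of related genes, the called probes with the 3 largest changes among those with no overlap of the groups, while other probes of those genes, Prdx1, Slc7a11 and Gstp2 were named after their values were seen. For probes undetected in a group, the limit per array was the higher of the lowest detected signal and the probe's own. The members and lists were chosen with earlier results of these data known.

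There were 15 alternatives. They were an offset of 50, quantile normalization of uncorrected signals floored at 1, shifts to a common 75th percentile of corrected and of uncorrected signals, no filter on dim probes, a filter that needs detection p under 0.01 everywhere (12962 probes), a trend in the prior variance, an unmoderated Student's t-test, a block for the replicate number, and each array left out in turn.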

Additional observations from a re-analysis of the deposited data

How the results depend on the processing

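The fall of *Dj1* was called under all 15 alternatives, with log2 fold changes from -1.24 to -1.003. The number of called probes over the array was within 1.5 times of 5387 under 8 of the 9 alternatives that kept all arrays, and 3519 with no filter on dim probes, where 45281 probes were tested. With each array left out it ran from 2559 to 5271, with fewer arrays compared. Called member probes numbered 4 after the 75th percentile shift with background correction, with no filter on dim probes and with an unmoderated t-test. Of all tested probes 30.2%, 7.77% and 20.5% were called there, in that order. With no filter all 19 member probes were tested. With each array left out the called member probes ran from 2 to 6, and 14.3% to 29.5% of all tested probes were called.

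Among the 16 member probes, 196 of the values under alternatives kept their direction and side of the threshold, 30 lost the call, 1 gained it and 12 changed sign. All 12 belonged to probes that were not called. GSTP1 ILMN_2677046 was at 0.086 and 0.029 and ILMN_1223230 at 0.089 and 0.032 after the 75th percentile shift with and without background correction, and both turned without Scramble replicate 2 (0.020 and 0.029). GSTP1 ILMN_2793329 was at -0.007 after that shift without background correction, -0.053 without Scramble replicate 2 and -0.020 without siDJ-1 replicate 3. NQO1 was at -0.021 without Scramble replicate 3, and GCLM at 0.146 without Scramble replicate 2 and 0.001 without siDJ-1 replicate 3. With each array left out the values ran from -0.021 to 0.265 for NQO1, from -0.182 to 0.146 for GCLM, and for GSTP1 from -0.113 to 0.020 (ILMN_2677046), from -0.104 to 0.029 (ILMN_1223230) and from -0.053 to 0.136 (ILMN_2793329). The cause was not tested.

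With the replicate number as a block (replicate block), 4350 probes and 6 member probes were called, the probe of GSTM2 that was not being ILMN_1251449 (adjusted p = 0.0673, of a range up to 0.153), and the log2 fold change of *Dj1* was -1.162. Deviations of same-numbered arrays correlated at 0.054, 0.047 and 0.020. Each array correlated best with its own number, at small values that are not independent of each other. Nothing in the labels or the design states whether the numbers pair the samples.

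Signal over background limits NQO1, GCLC and the 3 untested probes.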
